A study of Rattus norvegicus with 6 samples.

Results

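The cell cycle and DNA replication genes described here are 92 probe sets for 53 genes, out of 8799 probe sets on the array. They were chosen by gene symbol, in a rule that uses no measured value but was set with earlier results of these data known. A probe set was taken when it had exactly 1 annotated symbol and this starts with Ccna, Ccnb, Ccnd, Ccne, Cdk, Cdkn, Cdc, Plk, Aurk, Mcm, Pola, Pold, Pole, Rfc or Rrm, or is Pcna, Top2a, Mki67, Birc5 or Rb1. Among these names Ccna, Pole, Rrm, Mki67 and Birc5 gave no member. By role, 15 probe sets (5 genes) reported cyclins, 16 (11 genes) kinases and cell division cycle proteins, 7 (5 genes) inhibitors and 22 (11 genes) replication proteins. The other 32 probe sets (21 genes) share such a name but mostly act elsewhere, for example the small GTPase Cdc42, the chaperone partner Cdc37 and the neuronal kinase Cdk5. They include Cdk7, which also activates the Cdk proteins of the cell cycle. Some members were placed among the other roles after values had been seen, so the counts and medians by role are descriptions.

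RNA of whole rat ovaries was measured on 6 Affymetrix arrays (Rat Genome U34, Set A), 2 for each of 3 groups. The P0 ovaries were taken on the day of birth and the P4 ovaries on postnatal day 4. The cultured ovaries were taken at P0 and kept for 7 days on floating filters in serum-free medium with serum albumin, Albumax, transferrin, insulin and ascorbic acid. Each array held a pool of about 20 ovaries, and the pools of a group were independent per the labels. No strain is given in the labels. The series' own design text names progesterone as a treatment in culture. The labels leave unsettled whether either cultured array received it, and both were taken as 1 condition. In the rat these days span the breakdown of germ cell nests and the assembly of the first follicles, which the comparison of P0, P4 and cultured ovaries addresses.

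Cyclins bind cyclin-dependent kinases and switch them on, and the kinases then drive a cell into DNA synthesis and into mitosis. D-type cyclins with Cdk4 act early in G1, cyclin E with Cdk2 at the entry into S phase, and cyclin B1 with Cdk1 at mitosis, while inhibitors of the Cdkn families and the Rb1 protein hold the cycle back. In the newborn ovary the oocytes are arrested in meiotic prophase, whereas the somatic cells around them, among them the pregranulosa cells, can still divide. The RNA came from whole ovaries, so a change in the number of cells of a type and a change in RNA per cell cannot be told apart.

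Values are linear probe set intensities, scaled by the authors to a trimmed mean of 125.2 on every array. The medians of the arrays were 37.2 to 42.2, and the replicates of a group correlated across probe sets at 0.962 to 0.969. The 3′ probe set of the Gapdh control read 1324.2 on P0 replicate 1 and 2162.3 to 2775.1 on the other 5 arrays. The 3′ to 5′ ratio of the actin control was 1.75 to 2.23. Of the 92 member probe sets 78, for 48 genes, were bright enough to be tested, and 14 were too dim. The number of arrays limits the precision: the median standard error of a log2 difference was 0.259. The brightest of 23 blank control probe sets, which had no spiked transcript, read 20, and this is called the blank level. P-values measure the spread between arrays of a group, in which pool and chip cannot be told apart. The fit left 3 residual degrees of freedom for each probe set beside a prior of 6.45. Much of the spread used is thus shared across probe sets. A probe set is said to have passed when its limma p, adjusted by Benjamini-Hochberg over the 6118 probe sets tested, was under 0.05.

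Cyclin B1 (Ccnb1), the partner that activates Cdk1 for mitosis, rose 2.57-fold and 2.53-fold between P0 and P4 by its 2 probe sets. Cdk2, the kinase of S phase entry, rose by 1 of its 2 probe sets from a level below that of the brightest blank control. These 3 probe sets were the members that passed, and none passed as lower. The Cdk2 probe set came through the filter on dim values by its P4 and cultured readings alone, so its call is no independent support, and 2 of the 3, both Ccnb1, do not rest on this. Over all tested probe sets, 66 passed in either direction, a share of 1.08%, and those that rose were 0.85%, against 3 of 78 members. At an unadjusted p under 0.05 there were 21 members (26.9%, beside 13.0% of all), each of them higher at P4. Among the 21 are this Cdk2 probe set and Cdc7, which also came through the filter by its P4 and cultured readings. The direction of both is thus no independent support. Without any 1 of the 6 arrays the 3 calls became 0 or 1, and with no filter on dim probe sets they became 0.

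The labels give the same chip ID tag to P0 and P4 arrays of the same replicate number, so these arrays form 2 pairs, A and B, while each cultured array has a tag of its own. With the pair as a replicate block, 12 member probe sets for 10 genes passed, all of them higher at P4, and limma called 5.13% of all tested probe sets in either direction and 3.17% as higher. That fit left 1 residual degree of freedom for each probe set beside a prior of 8.71. Its p-values thus rest mostly on a spread shared across probe sets. The 10 genes were Ccnb1, Cdk2, Plk1, Cdc25b, Top2a, Mcm6, Pola2, Mcm5, Cdk1 and Aurkb. Cdk2 passed by the probe set that was under the blank level at P0. None of them is a D-type cyclin or an inhibitor. Few probe sets of either kind were tested, 3 of them for inhibitors. At a share of 3.17% called as higher among all tested probe sets, their absence sets neither kind apart.

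Both P4 arrays lay above both P0 arrays for 31 of the 78 members (39.7%), where 18.6% of all tested probe sets did so. Both P4 arrays lay below both P0 arrays for 10 members (12.8%), where 25.7% of all did. The median log2 difference of the members was 0.18, beside -0.05 over all tested probe sets, and 56 members were above 0. Within the pairs the median was 0.21 in pair A and 0.17 in pair B, and 41 members (52.6%) were above 0 in both pairs, against 27.9% of all probe sets. Taking the brightest tested probe set of each gene, 36 of 48 genes were above 0, and of the 19 genes with several tested probe sets 12 had the same sign by all of them. The kinases and cell division cycle proteins had a median of 0.71 with 13 of 13 above 0 and 11 above 0 in both pairs. Among them are Cdk2 (D28754_s_at) and Cdc7, whose P0 readings were under the blank level and which came through the filter by the other groups. Both are also among the 31 members without overlap. The replication proteins had a median of 0.47, with 17 of 22 above 0 and 15 in both pairs. Cyclins had a median of 0.08, the inhibitors one of -0.22, and the members with other roles one of 0.10. The values moved with single arrays: without P0 replicate 1 the median of all members was 0.294 and that of the cyclins 0.199. Without P0 replicate 2 the medians were 0.01 for cyclins, 0.471 for kinases, 0.263 for replication proteins and -0.031 for the other roles, and without P4 replicate 1 the latter 3 were 0.459, 0.254 and 0.048. Without P4 replicate 2 they were 0.725 for replication proteins and -0.127 for inhibitors.

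Markers of several cell types also differed between the groups. The summed level of 6 oocyte markers was 1306 to 1357 at P0, 4013 to 4339 at P4 and 3177 to 3277 in culture. The 3 that passed as higher at P4 were the zona genes Zp1, Zp2 and Zp3. Most of the rise came from Zp2 (282.4 and 338.3 to 1782.3 and 1466.4) and Zp3 (519.6 and 566.9 to 1466.7 and 2082.4). Ddx4, Kit and Gja4 differed from P0 by 0.03, 0.51 and 0.72 at P4 and did not pass. That of 12 granulosa and pregranulosa markers was 2175 to 2669 at P0, 3155 to 3937 at P4 and 1363 to 1389 in culture. Inha made up most of the rise at P4, from 238 and 394.7 to 1970.3 and 1349.1. Of the 10 tested, 6 were above 0 at P4, 2 passed as higher at P4 and 3 as lower in culture than at P4. With the replicate block 3 passed as higher at P4 and 1, Fst, as lower (-0.91, limma adjusted p 0.011). The 3 meiotic prophase markers summed to 319 to 536 at P0, 116 to 121 at P4 and 92.8 to 96.4 in culture. The 10 macrophage and leukocyte markers summed to 592 to 717 at P0, 372 to 459 at P4 and 1965 to 3886 in culture. Lyz2 was the largest part of the sum in culture (2267 and 955.7), while Ptprc differed from P0 by 0.06. Of the 8 tested 5 passed as higher in culture than at P0, and Itgam was under the blank level on all arrays. The 7 erythroid markers summed to 4033 to 4135 at P0, 2279 to 3033 at P4 and 202 to 218 in culture. Hbb made up most of the sum at P0 and P4, and read 3738.1 and 3809.8 at P0 and 44 and 23.8 in culture. Slc4a1 read 85 and 90.8 at P0 and 76.6 and 76.2 in culture. Epor and Hbg1 were under the blank level. The 4 theca and steroidogenic markers summed to 52 to 116 at P0, 168 to 319 at P4 and 97.4 to 144 in culture, with Cyp11a1 under that level. The sums of 4 endothelial markers (281 to 282, 190 to 275 and 162 to 218, with Vwf under that level), 3 surface epithelium markers (1324 to 1331, 485 to 746 and 1143 to 1288) and 8 stromal markers (14475 to 16248, 13394 to 16148 and 11914 to 12732) are given in the same order of groups. Of the surface epithelium markers Krt18 and Krt8 passed as higher in culture than at P0 (2.21 and 0.92, adjusted p 0.00469 and 0.0323). They also passed against P4 (2.57 and 1.48, 0.00214 and 0.00456). Krt19, which carries most of the sum at P0, passed only with the replicate block, as lower at P4 (-1.28, limma adjusted p 0.00467, and 0.0523 without). The stromal Postn passed as lower in culture than at P0 (-1.55, 0.0066). With the block 3 macrophage and leukocyte, 2 erythroid, 2 meiotic prophase and 1 stromal marker also passed as lower at P4. As higher, 3 oocyte and 2 theca and steroidogenic markers passed with it. The part of these cell types in the results on cell cycle genes was not tested.

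**Figure D1:**
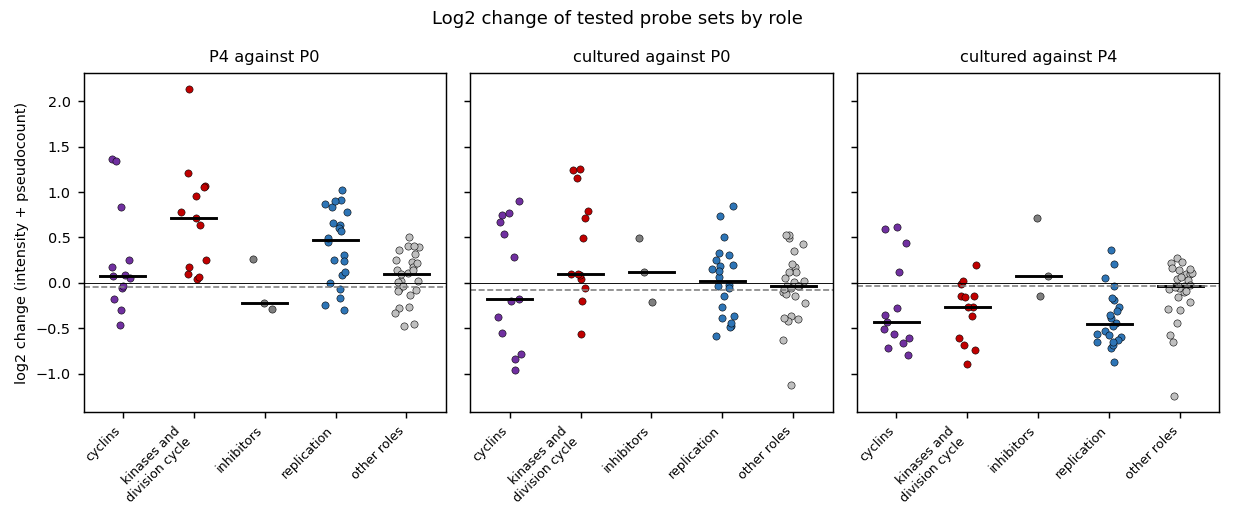
Log2 differences of the 78 tested probe sets by role in the 3 comparisons; each point is 1 probe set, black bars are medians by role, and the dashed line is the median of all tested probe sets. Between P4 and P0 all 13 kinase and cell division cycle probe sets lie above 0, and between cultured and P4 ovaries 19 of 22 replication probe sets lie below 0. Among the kinases, Cdk2 (D28754_s_at) and Cdc7 rest on P0 readings under the blank level.

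The promoters of 4 genes are shown because they cover both genes that passed (Ccnb1 and Cdk2), a mitotic kinase (Plk1) and a replication helicase subunit (Mcm6) that passed with the replicate block. Each sequence is from RefSeq, build GRCr8, and runs 5′ to 3′ on the strand of the gene, from 250 bases before to 50 bases after its annotated start. Capitals mark 5 short motifs on either strand. They are the box CCAAT, the core of the cell cycle homology region (TTTGAA), and 3 cores like those that E2F proteins bind. The first core is spelled TTCGCG, the second is spelled TTGGCG while the third is spelled TTCCCG. On the opposite strand CCAAT can overlap the second of these cores.
Ccnb1, chr2:33655176-33655475, minus strand: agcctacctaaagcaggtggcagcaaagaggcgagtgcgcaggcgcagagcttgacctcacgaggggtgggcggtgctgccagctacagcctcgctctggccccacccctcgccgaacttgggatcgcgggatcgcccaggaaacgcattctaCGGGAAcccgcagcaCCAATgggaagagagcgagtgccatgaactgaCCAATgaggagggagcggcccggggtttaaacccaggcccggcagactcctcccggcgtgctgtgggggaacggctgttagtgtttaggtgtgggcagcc
Cdk2, chr7:1721829-1722128, minus strand: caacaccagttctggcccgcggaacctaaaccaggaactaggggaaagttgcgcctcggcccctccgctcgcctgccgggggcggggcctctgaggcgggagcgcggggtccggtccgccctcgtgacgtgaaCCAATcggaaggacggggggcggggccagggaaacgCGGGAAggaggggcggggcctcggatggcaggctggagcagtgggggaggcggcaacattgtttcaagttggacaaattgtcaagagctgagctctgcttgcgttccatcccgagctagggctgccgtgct
Plk1, chr1:186147408-186147707, plus strand: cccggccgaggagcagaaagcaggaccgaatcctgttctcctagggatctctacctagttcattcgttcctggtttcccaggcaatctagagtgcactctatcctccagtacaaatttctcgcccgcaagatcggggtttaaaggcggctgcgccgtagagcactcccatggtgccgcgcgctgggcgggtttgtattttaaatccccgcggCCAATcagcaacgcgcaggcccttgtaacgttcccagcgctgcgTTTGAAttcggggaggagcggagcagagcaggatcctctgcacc
Mcm6, chr13:42404303-42404602, minus strand: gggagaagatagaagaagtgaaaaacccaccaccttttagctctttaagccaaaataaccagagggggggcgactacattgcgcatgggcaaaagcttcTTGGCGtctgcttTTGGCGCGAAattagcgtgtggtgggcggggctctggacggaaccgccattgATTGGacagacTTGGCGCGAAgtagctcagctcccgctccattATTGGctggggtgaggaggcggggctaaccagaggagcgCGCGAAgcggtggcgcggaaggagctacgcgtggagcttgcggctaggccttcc

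The Ccnb1 promoter held CCAAT 2 times and TTCCCG 1 time, and the Cdk2 promoter held each of them 1 time. The Plk1 promoter held CCAAT and TTTGAA 1 time each. The Mcm6 promoter held CCAAT 2 times, TTCGCG 3 times and TTGGCG 3 times. RefSeq promoters were matched for 45 of the 53 genes, 28 of them genes of the 4 cell cycle and replication roles. Among these 28, CCAAT was found in 60.7%, TTTGAA in 25.0%, and at least 1 of the E2F-like cores in 53.6%. The split by role was completed after values had been seen. Without it, the shares of all 45 were 46.7%, 17.8% and 48.9%. Among all 27457 promoters of the table, the shares were 37.7%, 18.1% and 21.3%. The TATA-box sequence TATAAA was in 3.57% of the 28 and in 14.3% of all. A match of letters is a description and not a bound site.

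Among the cyclins, the Ccnb1 probe set X64589_at read 268.9 and 206.5 at P0, 656.5 and 582.9 at P4, and 333.5 and 485.7 in culture. The P4 arrays were the highest and the P0 arrays the lowest, with no overlap between any of the groups. The difference between P4 and P0 was 1.36 ± 0.24 (log2, SE, n = 2 and 2) with a limma adjusted p of 0.0347, and it was 1.26 in pair A and 1.46 in pair B. The probe set rc_AA998164_s_at read 102.2 and 85.1 at P0, 278.6 and 219.6 at P4, and 159.6 and 205.7 in culture, in the same order. Its difference was 1.34 ± 0.23, with an adjusted p of 0.0347. With the replicate block the adjusted p values of the 2 probe sets were 0.00186 and 0.00312. The call of X64589_at held without P0 replicate 1 and was lost without any of the other 5 arrays (adjusted p up to 0.179), and that of rc_AA998164_s_at was lost without any 1 of the 6 (up to 0.197).

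Cyclin E1 (Ccne1), the partner of Cdk2, gave unlike readings by its 2 probe sets. D14015_g_at read 76.2 and 42.8 at P0, 116.2 and 101.5 at P4, and 68.5 and 73.9 in culture, so that P4 lay above the other groups. That difference from P0 was 0.84 ± 0.27 and did not pass, with an adjusted p of 0.207 and 0.0541 with the replicate block. D14015_at read 75.1 and 52.4 at P0 and 66.2 and 56.7 at P4, which overlapped, and 47.1 and 45.6 in culture.

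The 3 D-type cyclins, which link growth signals to Cdk4, did not follow Ccnb1. Cyclin D1 (Ccnd1) by D14014_at read 103.5 and 83.8 at P0 and 94.1 and 100 at P4, and 184 and 126.1 in culture. The cultured arrays were the highest by D14014_at and by 2 further probe sets of the gene, D14014_g_at (112.5 and 98 against 65.5 to 75.6 on the other arrays) and X75207_s_at (53.5 and 48.5 against 25.6 to 32.1). Their differences between cultured and P0 ovaries were 0.67, 0.54 and 0.77 on the log2 scale, with adjusted p values of 0.156, 0.197 and 0.109, so none passed. The fourth tested probe set, rc_AA957218_at, had 51.6 and 65 in culture against 63.9 and 69.3 at P0, which overlapped, and rc_AI231257_at was too dim.

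Cyclin D2 (Ccnd2) differed more between the replicates of P0 and of P4 than between these groups. By rc_AA899106_at it read 507.9 and 178.5 at P0, 452.1 and 155 at P4, and 115.9 and 235.5 in culture. D16308_at had the same pattern, with 194.4 and 99.6 at P0, 204.3 and 86.9 at P4, and 49.2 and 122.2 in culture. The array with chip ID tag A was 2.85 times the array with tag B at P0 and 2.92 times at P4 by rc_AA899106_at. The tag, the pool and the chip cannot be told apart here. Of the 78 members 10 (12.8%) had a gap of at least 0.5 in log2 between the tags in the same direction at P0 and P4, beside 6.44% of all tested probe sets.

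Cyclin D3 (Ccnd3) had its lowest values in culture by 2 of 3 tested probe sets. D16309_at read 217.3 and 259.6 at P0, 244.7 and 327.3 at P4, and 180.3 and 142.2 in culture. U49935mRNA_s_at read 67.4 and 94 at P0, 46 and 67.8 at P4, and 41.1 and 33.4 in culture. The cultured arrays lay below all others by both. For U49935mRNA_s_at the difference between cultured and P0 ovaries was -0.96 ± 0.27 with an adjusted p of 0.0811, and for D16309_at that between cultured and P4 ovaries was -0.79 ± 0.23 with one of 0.134. By D16309_g_at the groups overlapped (477.1 and 345.8 in culture, 439.4 and 499.1 at P0, 423.8 and 576.7 at P4).

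**Figure D2:**
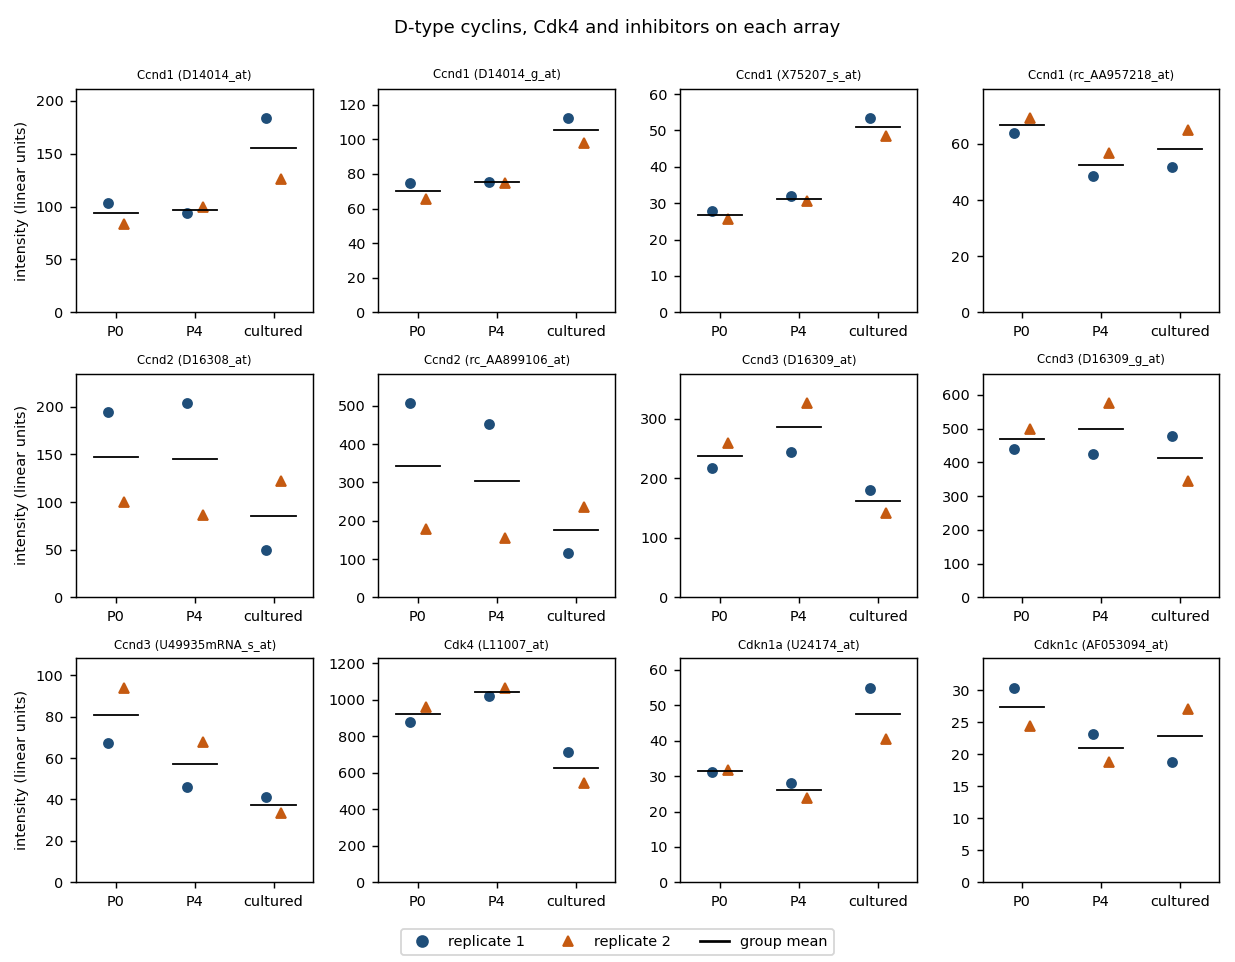
Linear intensity of D-type cyclin, Cdk4 and inhibitor probe sets on each of the 6 arrays, with replicate 1 as circles, replicate 2 as triangles and bars for group means; each panel starts at 0 and has its own scale. Ccnd1 is highest in culture by 3 of the 4 probe sets shown, Ccnd2 separates replicate 1 from replicate 2 at P0 and P4, and Cdk4 is lowest in culture.

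Among the kinases, Cdk2 by D28754_s_at read 4.3 and 5.5 at P0, 48.1 and 47.3 at P4, and 34.8 and 13.3 in culture. Both P0 arrays were under the blank level of 20, and so was cultured replicate 2. The P4 level was at least 2.38-fold that of P0, with the P0 arrays set to this blank level, and the fitted difference of 2.14 ± 0.37 on the log2 scale depends on the pseudocount (3.05 with a pseudocount of 1, and 1.14 with 4 times the main one). Its limma adjusted p was 0.0347 (0.0034 with the replicate block). It held without either cultured array and was lost without any 1 of the 4 P0 and P4 arrays (up to 0.154), and also after quantile normalization, at 0.0572. The other probe set, D28753_i_at, read 69.5 and 33.8 at P0, 83.2 and 41.9 at P4, and 44.5 and 62.7 in culture, and its groups overlapped (0.25 ± 0.38, adjusted p 0.859).

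Polo-like kinase 1 (Plk1), which acts at mitotic entry and spindle assembly, read 138 and 186.7 at P0, 329.2 and 359.7 at P4, and 269.5 and 298.1 in culture. P4 was the highest group and P0 the lowest, with no overlap. The difference between P4 and P0 was 1.06 ± 0.22 with an adjusted p of 0.0563, which passed with the replicate block at 0.00952. Between cultured and P0 ovaries it was 0.79 ± 0.22, with an adjusted p of 0.0747.

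Cdc25b, a phosphatase that removes inhibitory phosphates from Cdk1, read 57.4 and 87.3 at P0, 131.5 and 189 at P4, and 126.7 and 115.6 in culture by D16237_at. Both later groups lay above P0, by 1.07 ± 0.27 at P4 (adjusted p 0.103, and 0.011 with the replicate block). Its other 2 probe sets were under 20 on every array. Cdk1, the mitotic kinase itself, read 260.6 and 177.7 at P0, 430.8 and 324.5 at P4, and 233.6 and 226.4 in culture. The P4 arrays stood above the other 4, and the cultured values fell within the P0 range. For Cdk1 the difference between P4 and P0 was 0.78 ± 0.24 (adjusted p 0.189, and 0.0308 with the replicate block), and that between cultured and P4 ovaries was -0.68 ± 0.24 (0.227).

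Aurora kinase B (Aurkb), which corrects the attachment of chromosomes to the spindle, read 43.6 and 28.6 at P0, 100.9 and 56.9 at P4, and 96.4 and 81.4 in culture. Both later groups lay above P0, and they overlapped each other. The difference was 0.96 ± 0.30 at P4 (adjusted p 0.189, and 0.034 with the replicate block) and 1.16 ± 0.30 in culture (0.0621). The difference between culture and P0 passed at 0.045 with the chip ID tag as a random block, at 0.0385 in a fit of these 2 groups alone, and at 0.0385 and 0.0344 without P4 replicate 1 or 2.

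Other kinases and division cycle proteins went the same way at P4 without passing in either fit. Cdc7, the kinase that starts replication origins, read 11.9 and 7.1 at P0, 49.3 and 19.7 at P4, and 25.8 and 40.5 in culture. Both P0 arrays and P4 replicate 2 were under 20. Like Cdk2, Cdc7 came through the filter on dim values by its P4 and cultured readings, so its order of groups is no independent support. P0 lay below both later groups, and the cultured level was at least 1.62-fold that of P0. No bound is given for P4, since it would rest on 1 array. Plk4, which starts the copying of centrioles, read 87.1 and 58.1 at P0, 145.5 and 100.9 at P4, and 83.1 and 71.4 in culture. Cdc20, the activator of the anaphase-promoting complex, read 171.5 and 134.1 at P0, 292.3 and 197.9 at P4, and 224.6 and 207.2 in culture. For both genes the P4 arrays were above the P0 arrays, with differences of 0.71 and 0.64 and adjusted p values of 0.288 and 0.293. Cdc34, a ubiquitin-conjugating enzyme that marks cell cycle proteins for breakdown, had differences of 0.04 to 0.10 by its 3 probe sets, all with overlap, and Cdc25a was too dim to test (3.3 to 5.8).

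Cdk4, the partner of the D-type cyclins, read 878.5 and 961.9 at P0, 1020.2 and 1066.5 at P4, and 711.9 and 544.3 in culture. The cultured arrays lay below the other 4. The difference was -0.74 ± 0.19 between cultured and P4 ovaries (adjusted p 0.0795) and -0.56 ± 0.19 between cultured and P0 ovaries (0.126).

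**Figure D3:**
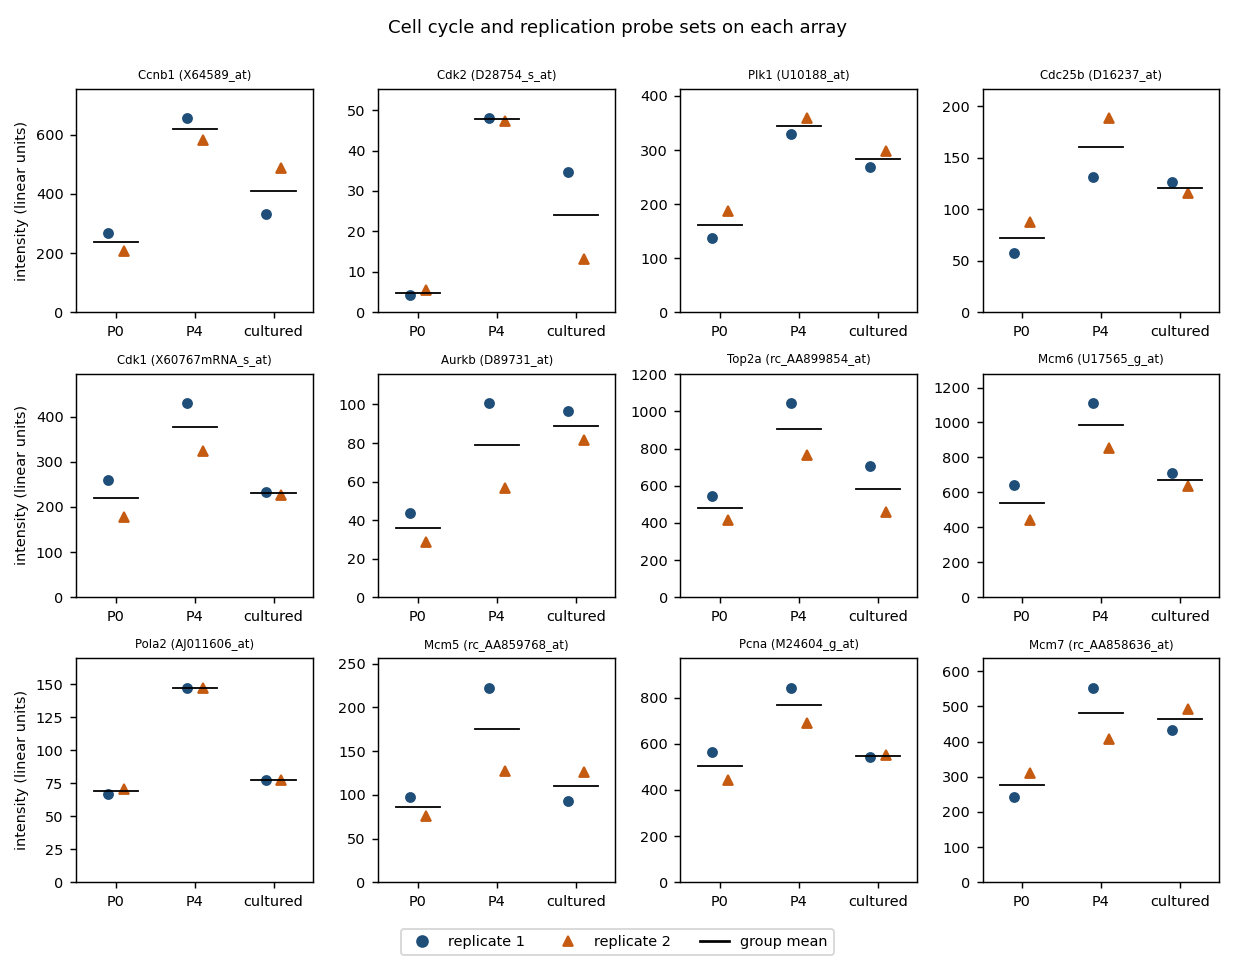
Linear intensity of 12 cyclin, kinase and replication probe sets on each array, with replicate 1 as circles, replicate 2 as triangles and bars for group means; each panel starts at 0 and has its own scale. The panels show 1 probe set of each of the 10 genes that passed with the replicate block, and of Pcna and Mcm7. That the P4 arrays lie above the P0 arrays in every panel reflects this choice. Members whose P0 and P4 arrays overlap, such as Rfc4 and Pola1, are not shown. The cultured arrays overlap P0 for Cdk1, Top2a, Mcm6, Mcm5 and Pcna and reach the P4 range for Aurkb and Mcm7.

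Inhibitors were mostly dim, and none of the 3 tested passed in any comparison by limma. At an unadjusted p under 0.05 there were 0 against P0 at P4, 0 in culture against P0, and 1 in culture against P4. The shares of all tested probe sets were 13.0%, 20.8% and 14.0%, so counts out of 3 do not set the inhibitors apart. Cdkn1a (p21), which blocks Cdk2 complexes, read 31.1 and 31.7 at P0, 28.1 and 23.8 at P4, and 55 and 40.4 in culture by U24174_at. The cultured arrays were the highest, with a difference of 0.71 ± 0.26 from P4 and an adjusted p of 0.246. Its other probe set was under 20 on every array but cultured replicate 2, where it read 41. Cdkn1c (p57) read 30.4 and 24.4 at P0, 23.2 and 18.8 at P4, and 18.8 and 27 in culture. Cdkn2b (p15) read 22.6 and 29.9 at P0, 31.2 and 34.2 at P4, and 20.1 and 40.7 in culture. For both, the cultured arrays overlapped the other groups, and the differences between P4 and P0 were -0.29 and 0.26 (adjusted p 0.763 and 0.822). Cdkn1b (p27) was too dim to test, at 14.5 and 16.9 at P0, 12.1 and 2.1 at P4, and 1.8 and 2.8 in culture, and so were both probe sets of Rb1 (7.1 to 21.5).

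All 22 replication probe sets were tested. The MCM proteins form the helicase that opens DNA at origins. Mcm6 by U17565_g_at read 639.7 and 441.2 at P0, 1113.1 and 855 at P4, and 708.5 and 636 in culture. The P4 arrays were the highest, and the cultured arrays overlapped P0. The difference between P4 and P0 was 0.87 ± 0.23 (adjusted p 0.121, and 0.0137 with the replicate block), and U17565_at gave 0.84 ± 0.27 (0.205, and 0.0298 with the block). The third probe set of Mcm6, rc_AI639082_s_at, gave 0.64 ± 0.31 with overlap, because P0 replicate 1 (584.6) exceeded P4 replicate 2 (534.3).

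Mcm5 read 97.5 and 75.5 at P0, 222.6 and 127 at P4, and 93.5 and 126.1 in culture. P4 lay above P0 by 0.91 ± 0.30 (adjusted p 0.206, and 0.0298 with the replicate block). Mcm7 read 241.3 and 310.5 at P0, 553.2 and 408 at P4, and 433.6 and 493.3 in culture. Unlike those of Mcm6 and Mcm5, the cultured values of Mcm7 were above both P0 arrays, by 0.74 ± 0.23 (0.0979), and within the P4 range, although whether the 3 genes differ in this was not tested.

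Pola2, the B subunit of DNA polymerase alpha, which lays down the first stretch of new DNA, read 67.1 and 70.5 at P0, 147.1 and 147.3 at P4, and 77.1 and 77.1 in culture. The P4 arrays were well apart from the other 4. The difference between P4 and P0 was 1.02 ± 0.21 (adjusted p 0.0561, and 0.0144 with the replicate block), and that between cultured and P4 ovaries was -0.87 ± 0.21 (0.0634). The catalytic subunit gene Pola1 did not share this pattern, with 22.6 and 34 at P0, 32.5 and 23.7 at P4, and 21.3 and 22.3 in culture. Pold1, the catalytic subunit of polymerase delta, read 89.4 and 83.5 at P0, 146.6 and 119.6 at P4, and 94.6 and 63.4 in culture, so P4 was above both other groups (0.57 ± 0.25 against P0, adjusted p 0.365).

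Topoisomerase II alpha (Top2a), which untangles sister chromatids, had higher values on both P4 arrays than on both P0 arrays by all 3 probe sets. By rc_AA899854_at it read 545.8 and 417.9 at P0, 1046.8 and 767.2 at P4, and 706.6 and 458.2 in culture. Z19552cds_at read 121.3 and 140.5 at P0, 222.8 and 200.3 at P4, and 126.3 and 129.3 in culture. The differences between P4 and P0 were 0.90 ± 0.26 (adjusted p 0.156, and 0.0115 with the replicate block) and 0.66 ± 0.21 (0.187, and 0.0727 with it). The dimmer D14045_s_at gave 0.24 ± 0.30 (0.822), with 54.6 and 72.6 at P0 and 77.9 and 73.7 at P4.

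Pcna, the sliding clamp of the replication fork, read 565.9 and 444.4 at P0, 843.3 and 691.9 at P4, and 543.9 and 552.8 in culture by M24604_g_at. P4 was the highest group and culture lay within the P0 range. The difference between P4 and P0 was 0.60 ± 0.20 (adjusted p 0.211), and M24604_at gave 0.45 ± 0.20 (0.378). Neither passed with the replicate block (0.0606 and 0.126).

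The clamp loader genes Rfc1 and Rfc4 act to place Pcna on DNA. Their 6 probe sets had differences between P4 and P0 of -0.30 to 0.25, and 5 of the 6 overlapped. By rc_AA819500_g_at Rfc4 read 509.9 and 313.6 at P0, 417.2 and 453.6 at P4, and 278.8 and 307.5 in culture. Its 3 probe sets were below 0 in pair A (-0.51, -0.28 and -0.64) and were above 0 in pair B (0.68, 0.52 and 0.16). Pold3, an accessory subunit of polymerase delta, read 71.8 and 30.5 at P0, 91.7 and 52.5 at P4, and 84.3 and 99.7 in culture by rc_AA859933_at, so that its P0 and P4 arrays overlapped.

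**Figure D4:**
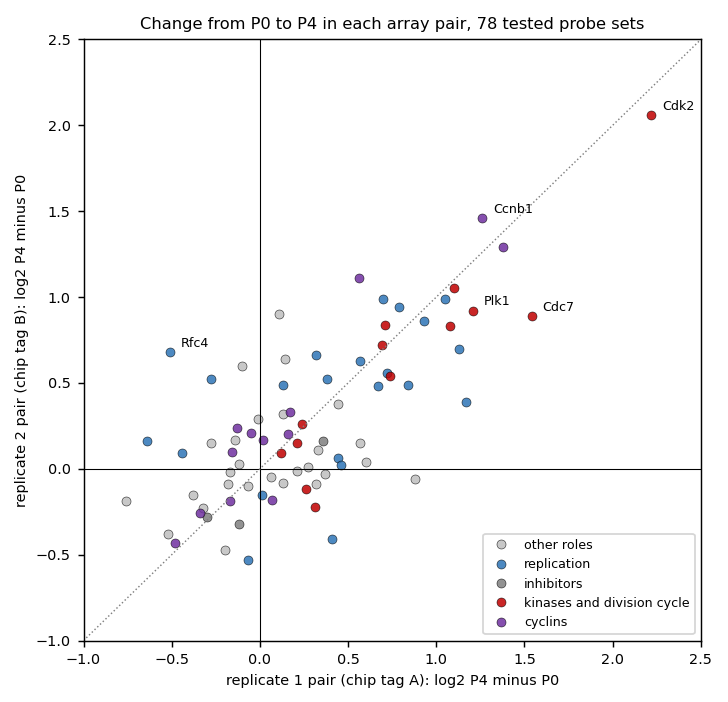
Log2 difference between P4 and P0 within array pair A (replicate 1, x axis) and pair B (replicate 2, y axis) for the 78 tested probe sets, coloured by role, with a dotted line where both pairs are equal. Of the 78 points 41 lie above 0 in both pairs. The labelled Cdk2 and Cdc7 points rest on P0 readings under the blank level, so their positions depend on the pseudocount.

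Of the 27 tested members with other roles none passed by limma at P4, and 0 had an unadjusted p under 0.05, beside 13.0% of all. There 5 lay above and 6 below P0 without overlap, near the shares of all probe sets. Cdk17, a kinase of the PCTAIRE family, read 65.9 and 46.8 at P0, 71.6 and 93.9 at P4, and 77 and 91.3 in culture by AB005540_at. Both later groups lay above P0, by 0.50 ± 0.25 at P4 (adjusted p 0.453) and 0.53 in culture (0.274). Cdk5 lay above P0 by 0.41 at P4 and 0.35 in culture, and its activator Cdk5r1 lay below it by -0.45 at P4, with adjusted p values of 0.492, 0.422 and 0.471. Cdc42, a GTPase of the cytoskeleton, had differences of -0.48 to -0.07 by its 4 probe sets at P4. By rc_AI227887_at, the dimmest of the 4, it read lowest in culture, at 29.7 and 23.3 against 34.7 to 57.9 on the other arrays. This was by -0.63 from P0 and -0.57 from P4 (limma adjusted p 0.257 and 0.435). The other probe sets did not share this. In culture rc_AI227887_g_at differed by 0.05 from P0 and 0.15 from P4, rc_AA925473_g_at by -0.04 and 0.22, and rc_AA925473_at by -0.37 and 0.11.

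Cdc42bpb, a kinase that binds Cdc42, read 68.9 and 135.9 at P0, 84.5 and 136.9 at P4, and 57.7 and 28.1 in culture. The cultured arrays were the lowest, with differences of -1.12 ± 0.39 from P0 and -1.25 ± 0.39 from P4 (adjusted p 0.139 and 0.151). Cdk7, the kinase that activates other Cdk proteins and is part of a transcription factor, read 112.5 and 90.8 at P0, 104.4 and 141.4 at P4, and 69.1 and 80.8 in culture, again lowest in culture (-0.65 ± 0.24 from P4, adjusted p 0.247). Cdc42ep3, an effector of Cdc42, read 90.5 and 138.5 at P0, 173.4 and 132.2 at P4, and 102.2 and 117.7 in culture. Culture lay below P4, by -0.44 ± 0.26 (adjusted p 0.53).

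In culture no member passed against P0 or against P4. The cultured ovaries differ from the P0 and from the P4 ovaries in culture, in days since birth and in chip ID tag at once. These cannot be told apart in either comparison. Against P0, limma called 332 of the 6118 probe sets, 5.43%, and 16 members (20.5%) had an unadjusted p under 0.05, beside 20.8% of all. Both cultured arrays lay above both P0 arrays for 20 members (25.6%; 21.3% of all), and below for 15 (19.2%; 29.0% of all). The 16 and the 20 include Cdk2 (D28754_s_at) and Cdc7, which came through the filter on dim values by their P4 and cultured readings. The median log2 difference was 0.03, beside -0.08 over all. The lowest adjusted p values were 0.06 for Ccnb1 (rc_AA998164_s_at, 0.90), 0.0621 for Aurkb (1.16), 0.0747 for Plk1 (0.79) and 0.0811 for Ccnd3 (U49935mRNA_s_at, -0.96).

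Against P4, limma called 170 of all probe sets, 2.78%, and 18 members (23.1%) had an unadjusted p under 0.05, beside 14.0% of all. Both cultured arrays lay below both P4 arrays for 32 members (41.0%; 24.5% of all), and above for 7 (8.97%; 19.1% of all). The median difference was -0.20, beside -0.04 over all. It was -0.46 for replication proteins, with 19 of 22 below 0, and -0.27 for kinases and cell division cycle proteins, with 11 of 13 below 0. The lowest adjusted p values were 0.0634 for Pola2 and 0.0795 for Cdk4. Among the other replication proteins, Top2a by Z19552cds_at had -0.69 (0.139) and Pold1 -0.72 (0.212). The median of all members was -0.124 without P4 replicate 1 and -0.306 without cultured replicate 2. Without P4 replicate 1 the median of the replication proteins was -0.283 and that of the cyclins -0.253, and without P4 replicate 2 that of the kinases was -0.425. These comparisons share arrays with the comparison of P4 and P0, so their values are given side by side and are not independent of it.

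**Figure D5:**
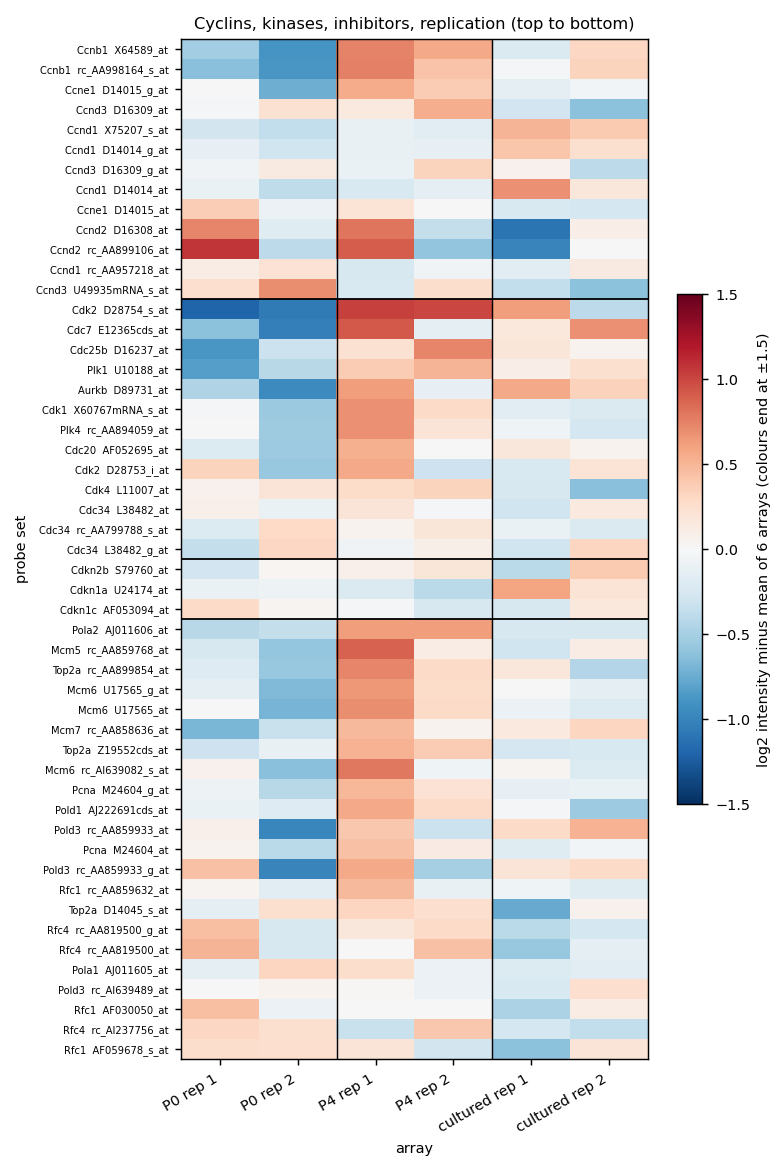
Log2 intensity of the 51 tested cyclin, kinase, inhibitor and replication probe sets on the 6 arrays, each row relative to its mean over the arrays, with red above and blue below that mean; lines separate the groups of arrays and the roles. Within each role the rows are sorted by their difference between P4 and P0, the highest at the top. That upper rows are red at P4 and blue at P0 follows from this sorting. Ccnd2 is red on replicate 1 of P0 and P4.

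Other genes of the pathway, from a list outside the naming rule, gave 42 tested genes, each by its brightest probe set. The list was chosen with earlier results of these data known, so it is no independent support. Dnmt1, which copies DNA methylation at the replication fork, was the 1 that passed at P4, with 202.8 and 147.7 at P0, 1047 and 624.6 at P4, and 515.6 and 956 in culture. It rose by 2.17 ± 0.33 at P4 (adjusted p 0.0222) and by 1.97 ± 0.33 in culture (0.0109). None passed as lower. With the replicate block 6 passed as higher at P4, among them the spindle checkpoint kinase Bub1b (1.07 ± 0.38, adjusted p 0.0127 with the block and 0.249 without) and the flap endonuclease Fen1 (0.84 ± 0.24, 0.0298 and 0.154). Of all tested probe sets 0.85% passed as higher at P4, and 3.17% with the block. At P4 33 of the 42 were above 0, with a median of 0.40, beside 2679 of all 6118 and a median of -0.05. In culture against P4 8 were above 0, with a median of -0.26, beside 2751 of all and a median of -0.04.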

How the data were processed

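Whole-ovary RNA was measured on 6 arrays, in 3 groups of 2 taken from the sample labels. The deposited values are linear probe set intensities, scaled by the authors to a mean of 125.2 on each array after trimming 2% at each end, as the values show. How the probes were summarised is not given in the sources used here. Before log2 was taken from these deposited intensities, 7.7 was added, their 20th percentile. The 59 control probe sets and the dimmest of the others, below the 30th percentile in mean log2, were left out, and 6118 were tested. Of the 8799 probe sets, 7018 had 1 annotated symbol, 308 had several and 1473 had none. The symbols of the members are the same in the rat RefSeq table.

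The groups were compared with limma 3.58.1 (R 4.3.3), in one fit of 3 group means with an intensity trend, two-sided. Calls had a p under 0.05 after Benjamini-Hochberg adjustment across the tested probe sets. With 2 arrays a group, an exact permutation test gives no p below 0.333. The fit was tested on simulated data. Folds "at least" set arrays of the dimmer group to the blank level of 20, the brightest of 23 unspiked control probe sets, which was chosen with the data in view. P0 and P4 arrays of the same number share a chip ID tag per the labels, which pairs them, and their deviations from the group means correlated at 0.33. Named are the called members, the 4 of smallest p in each role and comparison, and a fixed list of well-known genes. The design also asked for the genes most like the members called in culture against P0, of which there were 0. The members and lists were chosen with earlier results of these data known, and the assignment of members to other roles was completed after values were seen. Alternatives changed the pseudocount, filter, scaling, trend, arrays fitted and block, and left out each array.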

Additional observations from a re-analysis of the deposited data

How the results depend on the processing

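For P4 against P0, the number of probe sets called was 66. It was 23 with no filter on dim probe sets, 29 with no intensity trend, 23 with the 2 groups fitted alone, and 15 to 55 without 1 array. With the replicate block it was 314 (fixed) and 335 (random). The 3 members that rose became 0, 1 and 1 in the first 3 of these settings, 0 to 1 without 1 array, and 12 and 13 with the fixed and random replicate block. The members' median log2 difference of 0.181 ranged from 0.144 to 0.294 without 1 array. By the brightest probe set 1 gene rose, and by any probe set 2. For cultured against P0, the 332 calls became 90 to 353 without 1 array. The 0 members called higher became 1 with these 2 groups fitted alone, 1 with the random replicate block and 0 to 1 without 1 array, and the median of 0.027 ranged from -0.077 to 0.116, so that its sign was not stable. For cultured against P4, the 170 calls became 86 to 193 and the median of -0.199 ranged from -0.306 to -0.124. The causes were not tested. Among results on single members and role medians, 460 values under an alternative kept their direction and their side of the threshold, 23 passed that had not, 23 no longer passed and 31 moved by more than the replicate spread. No inhibitor was left under the filter at the 50th percentile, so their median was not computed there. With 2 pools a group, differences of the size of most members could not be resolved, and readings near the blank level (Cdk2, Cdc7, most inhibitors) give a bound rather than a level.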
